A study of Mus musculus with 5 samples.

Results

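Nedd4, Nedd4l, Itch, Wwp1, Wwp2, Smurf1, Smurf2, Herc2 and Ube3a encode HECT-type ubiquitin ligases, the enzyme class to which the product of Trip12 also belongs. They are 9 of the 18193 genes measured here. Membership was fixed by gene name: a probe set counted when its single annotated symbol was one of these genes, which gave 37 probe sets, between 2 and 6 for each gene. Each gene was represented by the probe set whose mean over the 5 arrays was highest, and no measured difference between the groups entered this choice.

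RNA came from mouse embryonic stem cells named E14 in the labels, with 2 samples of wild type (WT) and 3 in which both Trip12 alleles were mutant (Trip12 mut/mut). Both genotypes grew on mouse embryo fibroblast feeder cells in medium with serum replacement, fetal bovine serum and leukaemia inhibitory factor. The samples are called biological replicates. What the mutation is, whether the mutant samples are 1 clone, whether they are separate cultures, and whether feeder cells were removed before extraction are points on which the sources used here are silent. The p-values therefore measure the spread between these 5 samples, which may be technical. Values are log2 values made by the authors with RMA on Affymetrix arrays, so a difference of 1 is a 2-fold difference in signal. Depth is not defined for arrays, and the number of arrays limits the precision.

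A HECT ligase takes activated ubiquitin from an E2 conjugating enzyme onto a cysteine of its own HECT domain and then passes it to a substrate. Members of the NEDD4 family carry a C2 domain that binds membranes and WW domains that bind proline-rich PY motifs, either in the substrate itself or in an adaptor such as Ndfip1, Ndfip2 or an arrestin domain protein. Herc2 and Ube3a belong to other HECT branches: Herc2 is a very large protein with RCC1-like repeats that acts in DNA damage signalling and binds the Ube3a protein, and Ube3a is the ligase lost in Angelman syndrome.

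The sample labelled Trip12 mut/mut replicate 1 stood with WT. Over 45037 probe sets it differed from the WT arrays with SDs of 0.123 and 0.124 on the log2 scale, where the WT arrays differed from each other with an SD of 0.123, and none of these 3 pairings held a 2-fold difference at any probe set (0 counted). Against the WT arrays, 475 and 545 probe sets exceeded 2-fold on replicate 2, and 293 and 297 on replicate 3. The brightest of 7 Trip12 probe sets read 10.17 and 10.25 in WT, 10.18 on the sample labelled replicate 1, 12.09 on replicate 2 and 12.57 on replicate 3. The sample labelled replicate 1 lay between the WT arrays, and replicates 2 and 3 lay above them. All 10 embryonic stem cell markers examined, among them Pou5f1, Nanog and Sox2, were bright in WT, with means from 8.76 to 14.18. Averaged over the 10, they read 11.37 and 11.38 in WT, 11.37 on the sample labelled replicate 1, 11.22 on replicate 2 and 11.35 on replicate 3. Of these 10, 7 had negative differences over all 5 arrays. Without the sample labelled replicate 1 and dim probe sets, Utf1 alone of these 10 passed, as lower (difference -0.80, limma, adjusted p = 0.0422). In that comparison 4.64% of all genes passed. Next to them, 18 of 19 fibroblast markers were also above the median of all probe sets in WT. Averaged over the 19, the fibroblast markers read 10.08 on both WT arrays, 10.05 on the sample labelled replicate 1, 10.54 on replicate 2 and 10.56 on replicate 3, and 15 and 18 of them exceeded their WT mean on replicates 2 and 3. Without the sample labelled replicate 1 and dim probe sets, 7 of the 18 fibroblast markers tested passed as higher and 0 as lower. Their median difference there was 0.57, and 3.29% of all genes were called higher. These ligases are expressed in many cell types, the part of feeder RNA in the values below was not tested, and in such bulk RNA fewer cells of a type and less RNA per cell cannot be told apart.

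Transcripts of all 9 ligases were readily measured, with WT means from 7.73 to 11.76 against a median of 5.52 over all probe sets. As labelled, 0 of 9 passed the test for a difference between Trip12 mut/mut and WT (limma, adjusted p from 0.748 to 0.989), where 0 of all genes passed (0.0%). An unadjusted p below 0.05 was reached by 0 of 9, against 1.18% of all genes. The groups overlapped for all 9 members, whereas they did not overlap for 12.0% of all genes. The differences, mutant minus WT, were positive for 8 members and negative for Ube3a (Herc2, at 0.004, was negative with array medians centred or with quantile normalisation), with a median of 0.04 beside 0.02 over all genes. Of all 18193 genes 10250 had a positive difference, and 9379 with array medians centred. The median size of the difference, sign ignored, was 0.07 for the members and 0.10 for all genes.

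The members' values by array show where the spread lay. On the sample labelled replicate 1 the member farthest from its WT mean was Wwp1, at 0.139 below, and the median distance was 0.037, close to the 0.040 of all genes. On replicate 2 all 9 members lay outside the WT values, 6 above and 3 below, where 75.7% of all genes did; for Nedd4l, Herc2 and Ube3a the WT values were identical, so any other value counted as outside. The distances on replicate 2 stood at a median distance of 0.197 beside 0.161 for all genes. On replicate 3 the median distance was 0.043 beside 0.132 for all genes, with 6 members above both WT arrays, 1 below and 2 within or tied, where 74.0% of all genes lay outside WT.

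**Figure D1:**
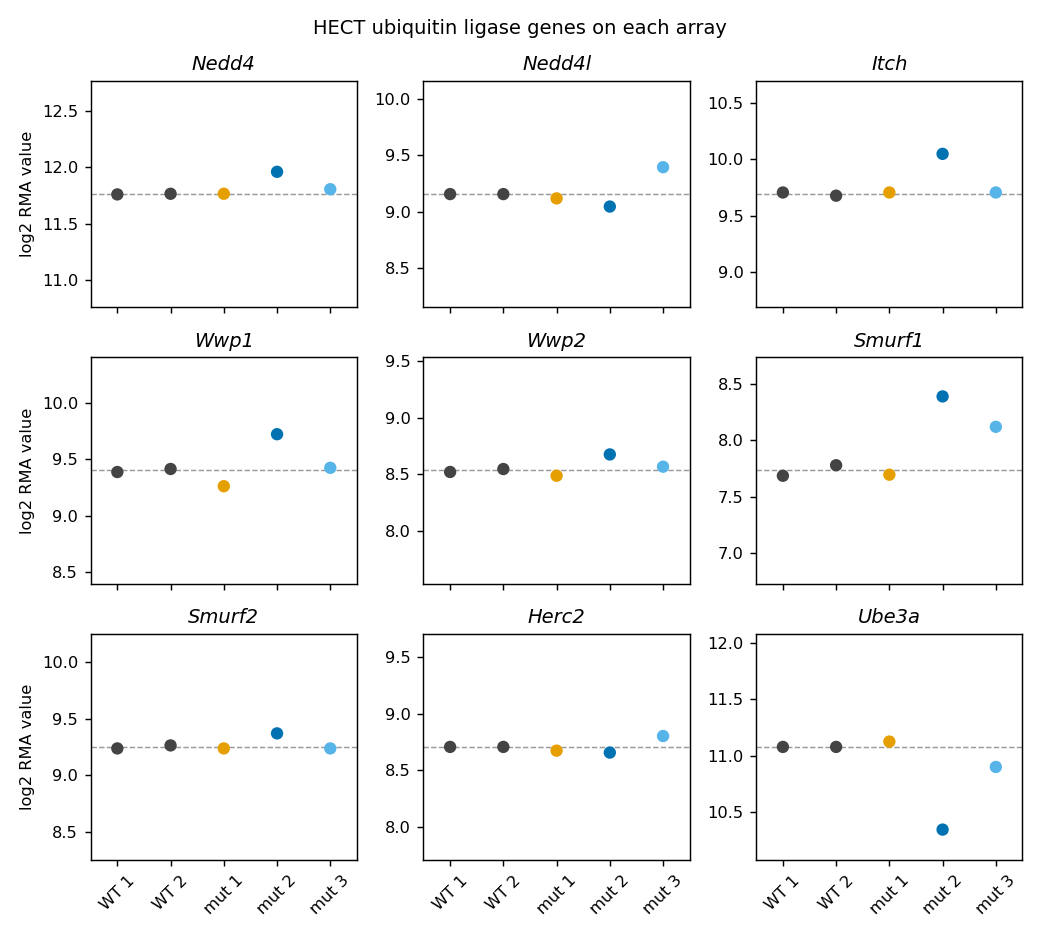
Log2 RMA value (vertical axis, each panel spanning 1 unit either side of the WT mean) of each HECT ligase gene on the 2 WT arrays (grey), and on Trip12 mut/mut replicates 1 (orange), 2 (dark blue) and 3 (light blue); the dashed line is the WT mean. Smurf1 is higher and Ube3a lower on mutant replicates 2 and 3; the other 7 genes are within 0.36 of the line, with Itch highest on replicate 2 and Nedd4l on replicate 3.

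Smurf1 had the largest positive difference of the members. Its product restrains BMP and TGF-beta signalling by marking SMAD proteins and receptors for degradation, and marks RhoA in cell protrusions. The signal was 7.68 and 7.78 in WT, 7.69 on the sample labelled replicate 1, 8.39 on replicate 2 and 8.12 on replicate 3. Replicates 2 and 3 were thus 1.58-fold and 1.31-fold the WT mean, and the sample labelled replicate 1 was 0.975-fold, between the WT arrays. Over all 5 arrays the difference was 0.33 (SE 0.22, 95% interval -0.26 to 0.93), a 1.26-fold ratio that did not pass (limma, adjusted p = 0.748). The interval runs from 0.835-fold to 1.91-fold. A difference at least as large in size was found for 9.64% of all genes.

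The weaker Smurf1 probe set read 6.25 on both WT arrays, 6.18 on the sample labelled replicate 1, 6.36 on replicate 2 and 6.33 on replicate 3. It lay on the same side of WT as the stronger one on replicates 2 and 3, by 0.11 and 0.08.

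Smurf2, the closest relative of Smurf1 and a ligase brought to TGF-beta receptors by Smad7, varied little between arrays. It read 9.24 and 9.26 in WT and 9.24 on the sample labelled replicate 1. Replicate 2 was at 9.37 and replicate 3 at 9.24. Only replicate 2 stood above WT, by 0.12. The difference was 0.03 (SE 0.06, 95% interval -0.14 to 0.21), so a change beyond 1.15-fold upward or 0.906-fold downward lay outside the interval over all 5 arrays (limma, adjusted p = 0.855). Without the sample labelled replicate 1 and dim probe sets the interval was wider, from 0.887-fold to 1.21-fold. A second Smurf2 probe set was highest on replicate 2 (8.61) and lowest on replicate 3 (8.31), with 8.39 and 8.42 in WT. The remaining one read 6.70 on every array, identical to the last digit. Such ties are frequent in the deposited values, with 20.5% of probe sets identical on the WT arrays, and are no measure of stable expression.

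Nedd4, the founding member of its family and a regulator of growth factor receptors and membrane traffic, read 11.76 and 11.77 in WT. On the mutant arrays it read 11.77, 11.96 and 11.81 in the order of the replicate numbers. Replicates 2 and 3 were both above WT, replicate 3 by only 0.04. The difference of 0.08 (SE 0.08, 95% interval -0.13 to 0.29) did not pass (limma, adjusted p = 0.750). The other Nedd4 probe sets, both above the median of all probe sets, differed in direction. One read 11.66 and 11.71 in WT, and 11.86 and 11.65 on replicates 2 and 3, on either side of WT but higher on average. Another read 11.01 and 10.94 in WT, 10.89 on the sample labelled replicate 1, 10.89 on replicate 2 and 10.75 on replicate 3, with every mutant array below WT.

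Nedd4l, whose product removes epithelial sodium channels from the cell surface and also targets SMAD proteins, moved in opposite directions on the mutant arrays. It was 9.16 on both WT arrays, 9.12 on the sample labelled replicate 1, 9.05 on replicate 2 and 9.40 on replicate 3. Replicate 3 was 1.18-fold and replicate 2 0.926-fold the WT mean. The difference was 0.03 (SE 0.12, 95% interval -0.30 to 0.36; limma, adjusted p = 0.934). The other Nedd4l probe set above the median of all probe sets was slightly above WT on both of these arrays, at 7.55 and 7.50 against 7.46 and 7.39, and the remaining 4 were below the median of all probe sets.

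Itch, a ligase that limits T cell activation and targets Jun family proteins, was higher on a single array. Its values were 9.70 and 9.68 in WT, and 9.70, 10.05 and 9.70 on the samples labelled replicates 1, 2 and 3. Replicate 2 was 1.28-fold the WT mean while the other mutant arrays were level with WT replicate 1. The difference was 0.13 (SE 0.13, 95% interval -0.22 to 0.48; limma, adjusted p = 0.752). A weaker Itch probe set ran the other way, with 6.91 on both WT arrays and on the sample labelled replicate 1, 6.82 on replicate 2 and 6.63 on replicate 3.

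Wwp1, which targets Krüppel-like factors among others, also peaked on replicate 2. It read 9.39 and 9.42 in WT, 9.26 on the sample labelled replicate 1, 9.72 on replicate 2 and 9.43 on replicate 3. The mutant arrays therefore lay on both sides of WT, and the difference was 0.07 (SE 0.15, 95% interval -0.34 to 0.47; limma, adjusted p = 0.864). A second Wwp1 probe set was likewise highest on replicate 2, at 8.52 beside 8.11 and 8.04 in WT. The remaining one was lowest there, at 7.63 beside 8.02 on each of the other 4 arrays.

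Wwp2, reported to ubiquitinate the pluripotency factor Oct4 (Pou5f1) in stem cells, stayed within a narrow band. It was 8.52 and 8.55 in WT, 8.49 on the sample labelled replicate 1, 8.68 on replicate 2 and 8.57 on replicate 3. Replicates 2 and 3 exceeded WT by 0.14 and 0.03. The difference was 0.04 (SE 0.07, 95% interval -0.15 to 0.24; limma, adjusted p = 0.819). The next brightest Wwp2 probe set was not higher on any mutant array, with 6.72 and 6.88 in WT. It read 6.68 on the sample labelled replicate 1 and 6.72 on both replicates 2 and 3. Another read 5.84 on every array, with identical values on all but replicate 3. Pou5f1 itself read 12.45 and 12.48 in WT, 12.46 on the sample labelled replicate 1, 12.42 on replicate 2 and 12.25 on replicate 3 (difference -0.09, SE 0.08; limma, adjusted p = 0.749).

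Ube3a had the largest negative difference of the members. Its main probe set gave 11.08 on both WT arrays, 11.12 on the sample labelled replicate 1, 10.35 on replicate 2 and 10.90 on replicate 3. Replicate 2 was at 0.602-fold of WT and replicate 3 at 0.884-fold, while the sample labelled replicate 1 was at 1.03-fold. The difference was -0.29 (SE 0.25, 95% interval -0.96 to 0.39) and did not pass (limma, adjusted p = 0.748). The interval runs from 0.513-fold to 1.31-fold, and was the widest of the 9 genes on the log2 scale. A difference at least as large in size was seen for 13.3% of all genes. Without replicate 2 the difference was -0.07 (limma, adjusted p = 0.785).

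Of the 6 Ube3a probe sets, 5 reached the median of all probe sets. On replicate 3 all 5 were below their WT mean, and on replicate 2 this held for 4. By the stricter count of lying below both WT arrays, 36.5% of all genes did so on replicate 3 and 28.6% on replicate 2. Probe sets of the same gene on the same array are not independent. The second brightest read 8.40 and 8.33 in WT, 8.23 on the sample labelled replicate 1, 7.58 on replicate 2 and 8.08 on replicate 3, so that every mutant array was below WT. The one at 7.34 and 7.12 in WT read 7.24 on replicate 2 and 6.88 on replicate 3. The one at 6.20 on both WT arrays read 6.09 and 5.94, and the dimmest of the 5, at 5.80 and 5.61 in WT, read 5.25 and 5.61.

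Herc2 had the smallest difference of all members. It read 8.71 on both WT arrays, 8.67 on the sample labelled replicate 1, 8.66 on replicate 2 and 8.80 on replicate 3. Replicate 3 was above and the other mutant arrays below WT, by at most 0.10. The difference was 0.004 (SE 0.07, 95% interval -0.17 to 0.18; limma, adjusted p = 0.989), which places a change beyond 1.13-fold or 0.887-fold outside the interval over all 5 arrays. Without the sample labelled replicate 1 and dim probe sets the interval was wider, from 0.865-fold to 1.19-fold. The WT values were identical, so they added no spread to either interval. The other 3 Herc2 probe sets were below the median of all probe sets.

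The probe sets bear on how far a single one can stand for its gene. That median was reached by 24 of the 37, with more than 1 for 8 members and 1 for Herc2. Replicates 2 and 3 were both above WT at 7 of the 24 and both below at 5, as were 31.0% and 23.0% of the probe sets above the median; at the other 12 they overlapped WT or lay on either side. The largest difference between the WT arrays in these 24 was 0.22. Of the 24, 0 passed over all probe sets (limma, 0.0% of 45037 called).

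**Figure D2:**
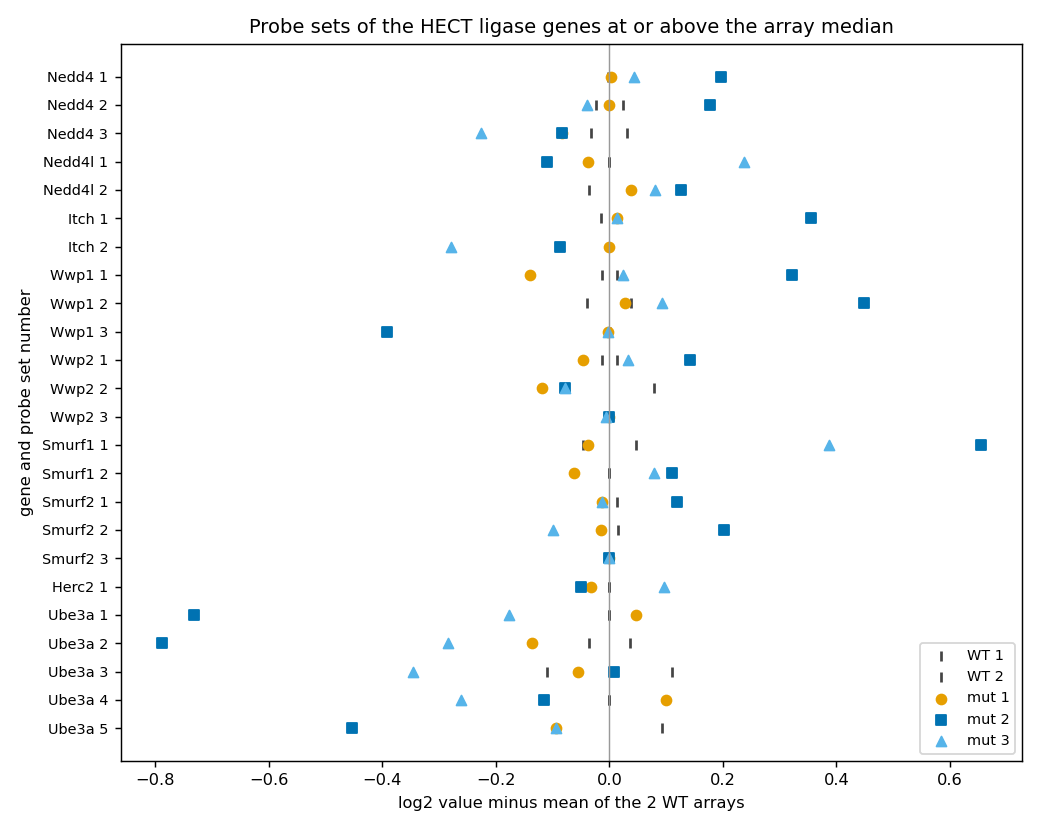
Log2 value minus the mean of the 2 WT arrays (horizontal axis) for the 24 probe sets of the HECT ligase genes no dimmer than the median probe set, numbered within each gene from the highest WT mean; vertical ticks are WT arrays, circles, squares and triangles mutant replicates 1, 2 and 3. The Ube3a probe sets lie mostly to the left and both Smurf1 probe sets to the right on replicates 2 and 3, while those of Nedd4, Itch and Wwp1 fall on both sides.

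Because the sample labelled replicate 1 stood with WT, the comparison was also made without it, among the 11626 genes that exceeded the median of all probe sets on 2 or more of the other 4 arrays. That array was set aside after its values were known, so these p-values are too favourable. All 9 members entered this comparison and 0 passed, against 4.64% of all genes. With the same sample left out but dim probe sets kept, 0 of 18193 genes passed (0.0%; limma, smallest adjusted p = 0.0785), members included. The unadjusted p was below 0.05 for Smurf1 alone, or 1 of 9, against 28.8% of all genes. Smurf1 was 0.52 higher (SE 0.12, 95% interval 0.18 to 0.86; limma, adjusted p = 0.0876), a ratio of 1.44. Ube3a was at -0.45 (SE 0.21, 95% interval -1.04 to 0.13; limma, adjusted p = 0.252), a ratio of 0.730.

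The remaining 7 members differed by 0.02 for Herc2 up to 0.18 for Itch in that comparison, with adjusted p between 0.424 and 0.873 (limma). Values of the groups did not overlap for 5 of 9 members, where 57.2% of all genes did not overlap. Nedd4, Wwp1, Wwp2 and Smurf1 were above WT, as were 35.2% of all genes, and Ube3a was below, as were 22.1%. The median difference of the members was 0.09 beside 0.05 over all genes, and the median size was 0.12 beside 0.19.

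**Figure D3:**
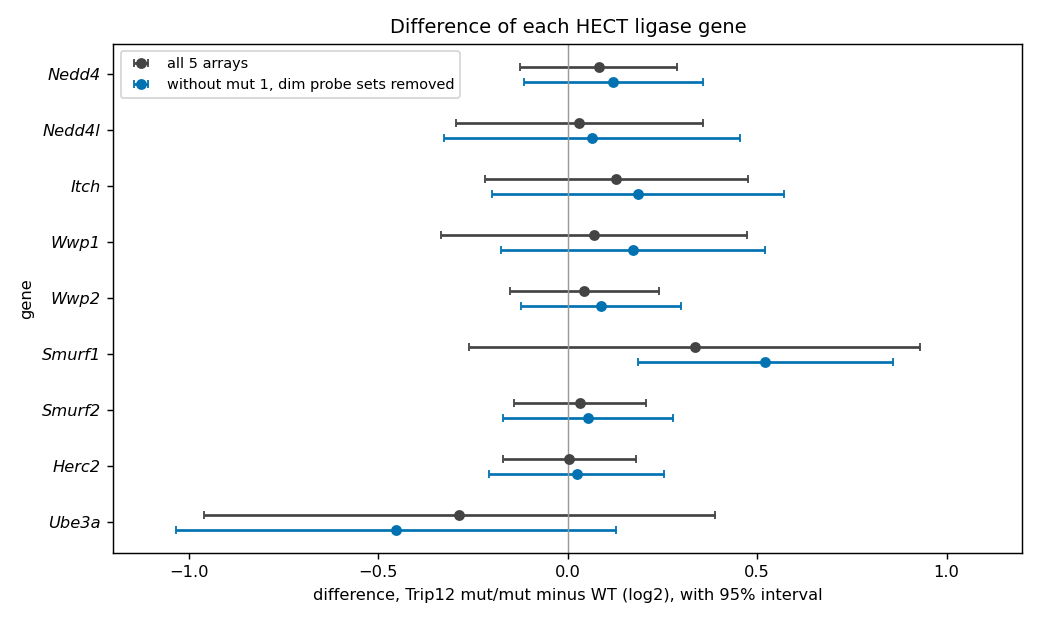
Difference between Trip12 mut/mut and WT on the log2 scale (horizontal axis) with its 95% interval, not adjusted for the number of genes, for each HECT ligase gene, over all 5 arrays (grey) and without the sample labelled mutant replicate 1 and dim probe sets (blue). All 9 grey intervals include 0; among the blue ones that of Smurf1, from 0.18 to 0.86, does not.

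As labelled, the intervals were narrow for most members. Over all 5 arrays each of the 9 lay within 1 on either side of 0, that is, within a 2-fold change in either direction, and 7 of them lay within 0.5. The 2 wider ones were those of Smurf1 and Ube3a. Without the sample labelled replicate 1 the bound no longer held for Ube3a, whose interval reached -1.04 with dim probe sets removed and -1.13 with them kept.

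Among the other HECT ligases, 0 of 15 passed over all 5 arrays, where 0.0% of all genes passed. Without the sample labelled replicate 1 and dim probe sets 0 of 13 passed, against 4.64% of all genes. The median differences of these ligases were -0.02 and -0.04, with 6 positive and 9 negative over all 5 arrays. Hectd2 read 6.73 and 6.74 in WT, 6.74 on the sample labelled replicate 1, 7.56 on replicate 2 and 6.90 on replicate 3 (difference 0.33, SE 0.27; limma, adjusted p = 0.748). It was above WT on replicates 2 and 3, by 0.83 and 0.16. Herc6, an interferon-inducible HECT gene of the mouse, read 7.27 and 7.15 in WT, 7.27 on the sample labelled replicate 1, 7.58 on replicate 2 and 7.48 on replicate 3 (difference 0.23, SE 0.11; limma, adjusted p = 0.748). Herc1, a giant relative of Herc2, was lowest on replicate 2, at 7.91 against 8.52 and 8.48 in WT, 8.60 on the sample labelled replicate 1 and 8.31 on replicate 3 (difference -0.23, SE 0.22; limma, adjusted p = 0.750).

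Adaptors and regulators of the NEDD4 family included the related gene with the largest difference. Txnip, an arrestin domain protein that restrains glucose uptake and is itself a target of Itch, read 10.34 and 10.40 in WT, 10.33 on the sample labelled replicate 1, 11.52 on replicate 2 and 11.29 on replicate 3. It did not pass over all 5 arrays (difference 0.67, SE 0.39; limma, adjusted p = 0.748). Without the sample labelled replicate 1 and dim probe sets it rose by 1.03 (SE 0.11; limma, adjusted p = 0.0420), a ratio of 2.05, and was the only one of 16 that passed; 3.29% of all genes were called higher there. With that sample left out and no filter on dim probe sets the call was lost (limma, adjusted p = 0.0796).

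Ndfip2, a membrane adaptor that recruits and activates NEDD4 ligases, read 9.97 on both WT arrays, 9.94 on the sample labelled replicate 1, 10.58 on replicate 2 and 10.30 on replicate 3. Smad6, an inhibitory SMAD that works with Smurf1, read 6.48 and 6.44 in WT, 6.37 on the sample labelled replicate 1, 6.88 on replicate 2 and 7.16 on replicate 3. Both were higher on replicates 2 and 3 and passed in neither comparison (limma, adjusted p = 0.0976 for Ndfip2 and 0.0802 for Smad6 without the sample labelled replicate 1 and dim probe sets, and 0.748 for each over all 5 arrays). The list had 10 positive and 6 negative differences and a median of 0.12 over all 5 arrays, where 10250 of all 18193 genes were positive. The list's values on replicates 2 and 3 stand beside the higher fibroblast markers on the same arrays, whose part in them was not tested.

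**Figure D4:**
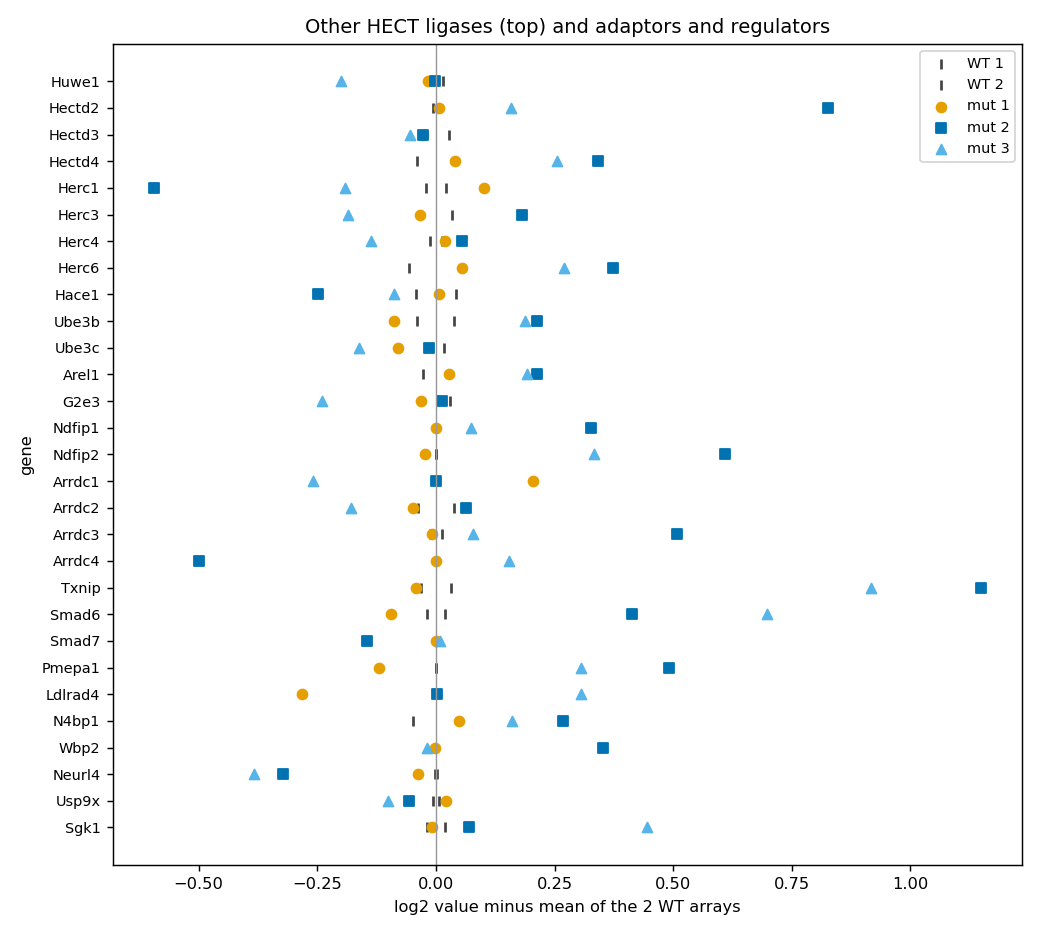
Log2 value minus the mean of the 2 WT arrays (horizontal axis) for the 13 other HECT ligases and 16 adaptors and regulators no dimmer than the median probe set; vertical ticks are WT arrays, circles, squares and triangles mutant replicates 1, 2 and 3. Txnip lies farthest to the right on replicates 2 and 3, and the circles of the sample labelled mutant replicate 1 stay near 0 for most genes.

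The E2 enzymes that load HECT ligases showed small differences. Of 6 measured 0 passed over all 5 arrays, where 0.0% of all genes passed, and the median difference of the 6 was -0.08. Without the sample labelled replicate 1 and dim probe sets 0 of the 5 tested passed, against 4.64% of all genes. Ube2e1, named with Ube2d3 and Ube2e3 for the largest differences of the list, read 10.79 and 10.66 in WT and 10.66, 10.68 and 10.36 on the mutant arrays. Its difference of -0.16 had an SE of 0.13. Ube2d3 differed by -0.13 and Ube2e3 by 0.06, with adjusted p of 0.768 and 0.825 (limma).

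Genes of proteins reported as substrates of these ligases were measured in 31 cases. Over all 5 arrays 0 passed, where 0.0% of all genes passed, with 23 positive and 8 negative differences and a median of 0.10. Of all 18193 genes 10250 had a positive difference there. Cflar, an inhibitor of caspase activation at death receptors and a target of Itch, read 7.99 and 8.04 in WT, 8.07 on the sample labelled replicate 1, 9.11 on replicate 2 and 8.79 on replicate 3. It rose by 0.93 without the sample labelled replicate 1 and dim probe sets (SE 0.13; limma, adjusted p = 0.0493), the only one of 25 that passed there. In that comparison 4.64% of all genes passed, and 3.29% were called higher. The call of Cflar was lost with no filter on dim probe sets (limma, adjusted p = 0.0896) and over all 5 arrays (0.748). Igf1r, the receptor for insulin-like growth factors, was higher on replicates 2 and 3, at 8.79 and 8.47 against 7.96 and 8.10 in WT and 7.90 on the sample labelled replicate 1. It did not pass in either comparison (limma, adjusted p = 0.748 and 0.0886).

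Trp73, a p53 family transcription factor targeted by Itch, read 6.23 and 6.10 in WT and 6.38, 6.55 and 6.59 on the mutant arrays, so that all 3 were above WT. Its difference of 0.34 (SE 0.09) gave the only unadjusted p below 0.05 among the 79 related genes measured, 0.0171 (limma, adjusted p = 0.748). Of all genes, 1.18% had an unadjusted limma p below 0.05 over all 5 arrays. Without the sample labelled replicate 1 and dim probe sets, 20 of 67 related genes did, beside 28.8% of all genes. The groups did not overlap over all 5 arrays for 4 of the 79, Smad3, Trp73 and Cflar above WT and Neurl4 below, beside 12.0% of all genes. Neurl4, a binding partner of Herc2, read 8.95 and 8.96 in WT, 8.92 on the sample labelled replicate 1, 8.63 on replicate 2 and 8.57 on replicate 3 (difference -0.25, SE 0.12; limma, adjusted p = 0.748).

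Ube3a and Herc2 lie on chromosome 7 in a region whose human counterpart is linked to Prader-Willi and Angelman syndromes and which holds several imprinted genes. By the gene order of the GRCm38.p6 annotation, Herc2 is the 6th protein-coding gene from Ube3a on one side, and Snrpn, Ndn, Magel2 and Mkrn3 lie on the other. Of 11 neighbours measured 0 passed over all 5 arrays, where 0.0% of all genes passed. Their differences were positive for 6 and negative for 5, with a median of 0.01. Without the sample labelled replicate 1 and dim probe sets 0 of the 8 tested passed, against 4.64% of all genes. Atp10a, the gene next to Ube3a, read 7.40 on both WT arrays, 7.48 on the sample labelled replicate 1, 6.81 on replicate 2 and 6.99 on replicate 3 (difference -0.31, SE 0.22; limma, adjusted p = 0.748). Snrpn, a paternally expressed splicing factor gene, read 6.06 and 6.17 in WT, 6.06 on the sample labelled replicate 1, 5.58 on replicate 2 and 5.83 on replicate 3 (difference -0.29, SE 0.16; limma, adjusted p = 0.748). In contrast Ndn, a paternally expressed growth suppressor gene, was higher on replicates 2 and 3, at 10.38 and 9.94 against 9.65 and 9.56 in WT and 9.65 on the sample labelled replicate 1 (difference 0.39, SE 0.23; limma, adjusted p = 0.748). The genes of the region thus lay on both sides of WT on these arrays.

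The genes most like Ube3a and Smurf1 over the 5 arrays were sought among 11683 genes above the median, by the root mean square distance between values taken relative to each gene's WT mean. Nearest to Ube3a were Ints2, a subunit of the Integrator complex, at a distance of 0.019, Odf2, a centriole appendage protein, at 0.020, and Pgm2l1 at 0.025. Ints2 read 10.10 and 10.07 in WT, 10.11 on the sample labelled replicate 1, 9.34 on replicate 2 and 9.87 on replicate 3. Nearest to Smurf1 were Nav1 at 0.012, the glycolipid transfer protein gene Gltp at 0.020 and the cathepsin gene Ctso at 0.020. Nav1 read 9.08 and 9.15 in WT, 9.08 on the sample labelled replicate 1, 9.79 on replicate 2 and 9.50 on replicate 3. Neither profile was rare, since 416 genes lay within 0.1 of Ube3a and 656 within 0.1 of Smurf1.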

How the data were processed

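Per the submitters' processing notes, the authors made the deposited log2 values with RMA (background correction, normalisation between arrays, 1 summary value per probe set); the sources used here give no version. Array medians ran from 5.51 to 5.55, so that a change common to the whole transcriptome would not show. There is no detection call, and identical values on several arrays are frequent.

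Of 45101 probe sets, 64 controls were left out. The platform annotation gave 1 symbol to 34945, several to 932 and none to 9160; 34741 were updated by gene number through a GRCm38.p6 table. The test was limma 3.58.1 (R 4.3.3; genotype as the only term, two-sided, Benjamini-Hochberg over all genes, threshold 0.05). In a simulation that took its spread from the 5 arrays, 59 of 100 genes changed by 1 and 84 of 100 changed by 2 on the log2 scale were recovered among 18193 genes, with 7 false calls. It added each change to every mutant array, whereas the sample labelled replicate 1 stood with WT in the data. Its shares therefore do not apply to a change absent from that sample.

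The members, the 5 lists of related genes and the marker lists were chosen with earlier results of these data known. Of 87 related genes, 8 were not analysed here. Named were all members, and in each related list the 3 genes above the median with the largest difference and any that passed; Smad3, Neurl4 and Pou5f1 were named after their values were seen. Alternatives covered normalisation, dim probe sets, the variance model, weighting of arrays, the replicate number as a block, single arrays left out and the choice of probe set. Figures were drawn with matplotlib 3.10.9.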

Additional observations from a re-analysis of the deposited data

How the results depend on the processing

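Under 14 alternatives, 0 of 9 ligases passed in limma (adjusted p from 0.0876 to 1.0), and of 126 differences 112 kept their direction. The only alternative in which any gene passed was that without the sample labelled replicate 1 and dim probe sets (539 of 11626, 4.64%). In the others the absence of calls therefore does not set the ligases apart from other genes. Not all of the 126 could turn, since removing dim probe sets alone or changing the variance model left each difference unchanged. Leaving out the sample labelled replicate 1 gave the same differences with dim probe sets kept or removed. The replicate block gave those found without replicate 3. How many of all genes kept their direction was not computed. Smurf1 stayed positive (0.17 to 0.52) and Ube3a negative (-0.45 to -0.07) in all 14. The members' median difference lay between 0.014 and 0.13. The sign turned for Herc2 with array medians centred (-0.0093), quantile normalisation (-0.020), the replicate block (-0.042) and without Trip12 mut/mut replicate 3 (-0.042). It turned for Nedd4l with the replicate block (-0.074) and without replicate 3 (-0.074). Without replicate 2 it turned for Wwp1 (-0.058), Wwp2 (-0.0063) and Smurf2 (-0.013). With the mean of probe sets it turned for Nedd4 (-0.0014), Itch (-0.022) and Wwp2 (-0.015), and with the probe set of largest SD for Nedd4 (-0.13) and Wwp2 (-0.091). The same alternative moved Nedd4l from 0.03 to 0.42, through a probe set below the median of all probe sets. With single arrays left out the difference ran from -0.042 to 0.031 for Herc2, -0.074 to 0.10 for Nedd4l, -0.058 to 0.17 for Wwp1, -0.0063 to 0.088 for Wwp2, -0.013 to 0.053 for Smurf2, 0.014 to 0.18 for Itch and 0.023 to 0.12 for Nedd4; the lowest value of the last 2 came without replicate 2. Main differences of the genes whose sign turned were at most 0.13, and the cause was not tested. Groups did not overlap for 1 member with the mean of probe sets and 3 with the probe set of largest SD. With an array left out the count was 0 to 5, and fewer values were left to overlap. The share of all genes was not computed for these settings, except without the sample labelled replicate 1. Leaving out that sample gave the 5, where 26.7% of all genes were above both WT arrays and 17.5% below. The 5 also came with dim probe sets removed as well, where 57.2% of all genes did not overlap. With both choices together 2 related genes passed, Txnip and Cflar, against 0 in every other alternative, leaving out that sample alone included.

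The labels share replicate numbers 1 and 2 between the groups. Same-numbered arrays did not deviate together (r = -0.048 and -0.084 across genes, which are not independent replicates). The number was therefore not taken as a pairing. With it as a replicate block the members' median difference was 0.053, and 0 passed. Number 3 occurs only in the mutant group, so mutant replicate 3 has a block to itself and does not enter that difference. Without either WT array the lone WT sample is assumed to vary like the mutants. The few arrays limit precision. List counts over all 5 arrays include genes below the median.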
